A study of Homo sapiens with 6 samples.

Results

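The 10 integrin subunit genes ITGA2, ITGA3, ITGA5, ITGA6, ITGAV, ITGB1, ITGB3, ITGB4, ITGB5 and ITGB6 were taken by symbol from the 58735 rows of the expression table, 5 alpha and 5 beta subunits out of the 26 of the family. Each symbol was found in 1 row. Integrins join a cell to the matrix around it. Each receptor at the cell surface is 1 alpha and 1 beta chain, and the pair decides which matrix protein is bound. ITGB1 encodes the beta chain shared by the most alpha chains, ITGA3 and ITGA6 encode laminin-binding alpha chains, ITGA2 a collagen-binding one, and ITGA5 and ITGAV bind ligands with an RGD motif such as fibronectin and vitronectin. ITGB4 pairs with ITGA6 in hemidesmosomes, and ITGB3, ITGB5 and ITGB6 are partners of ITGAV.

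The values came from MDA-MB-231, an established line of triple-negative breast adenocarcinoma. The labels give the genotype as WT, while the library names carry SCR, the name the study uses for cells with a non-targeting shRNA (shSCR), so both groups share that background. The 3 control libraries are from cells at 0 Gy, and the 3 irradiated libraries from cells given 10 Gy of 137Cs gamma rays, with RNA taken 24 h later. No source used here says whether replicates were separate cultures. The p-values weigh the difference between doses against the spread between these libraries, which may be technical. The keratins KRT8, KRT18 and KRT19 averaged between 90.9 and 109 FPKM at 0 Gy and the epithelial gene EPCAM 1.44 FPKM, while VIM, a mesenchymal marker that this line is known to express, averaged 301 FPKM. Of the leukocyte markers, CD3E was at 0 in every library and CD14 averaged 1.96 FPKM at 0 Gy. FPKM is the number of fragments on a gene per kilobase of its length, scaled to the reads of the library, so levels can be compared between genes. Whole reads recovered from the values summed to between 15643641 and 28861781 per library.

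The tails inside the cell show what the alpha chains share and where 1 beta chain differs. All 5 alpha chains carry the membrane-proximal motif GFFKR, which clasps the beta chain at the inner face of the membrane. The codons of that motif are in capitals, with 6 coding bases on each side, 5′ to 3′ on the coding strand, from GENCODE 29 transcripts on GRCh38. Each window crosses an intron, so its genomic span is longer than the sequence.
ITGA3: aagtgcGGCTTCTTCAAGCGAgcccgc
ITGA6: aagtgtGGTTTCTTCAAGAGAaataag
ITGA2: aagctcGGCTTCTTCAAAAGAaaatat
ITGA5: aagcttGGATTCTTCAAACGCtccctc
ITGAV: aggatgGGCTTTTTTAAACGGgtccgg
These lie at chr17:50087867-50088248 and chr2:172498098-172501795 (plus strand), chr5:53090060-53090542 (plus), chr12:54396353-54397367 (minus) and chr2:186676933-186677220 (plus). Between them the 5 codons differ only at synonymous bases, since all were found by a search for the same 5 residues. Of the beta chains, 4 hold an NPxY motif, the docking site of talin, within their last 60 residues, and its codons are in capitals here.
ITGB1: ggtgaaAATCCTATTTATaagagt
ITGB3: gccaacAACCCACTGTATaaagag
ITGB5: gcttcaAATCCATTATACagaaag
ITGB6: ggaaccAATCCACTCTACagagga
These lie within single exons, at chr10:32901612-32901635 (minus strand), chr17:47310139-47310162 (plus), chr3:124763695-124763718 (minus) and chr2:160101811-160101834 (minus). The same search found no such motif at the end of ITGB4, whose chain of 1822 residues is far longer than the 798 residues of ITGB1.

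The cells expressed 8 of the 10 subunits well and the other 2 barely. The order at 0 Gy was ITGB1, ITGA3, ITGA6, ITGB4, ITGA2, ITGA5, ITGAV, ITGB5, ITGB3 and ITGB6. In each of the 9 neighbouring pairs of that order, the ranges of the 3 control libraries did not overlap, and the same held at 10 Gy. ITGB1 stood at 239 ± 2.57 FPKM (SD, n = 3), and ITGB6 at 0.214 ± 0.0323 FPKM (SD, n = 3), which is 1116-fold lower. The largest step between neighbours was 32.5-fold, between ITGB5 and ITGB3. ITGB3 rested on 38 to 84 reads per library and ITGB6 on 16 to 23 reads. The 10 members made up 97.1% of the summed FPKM of all 26 subunits at 0 Gy.

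**Figure D1:**
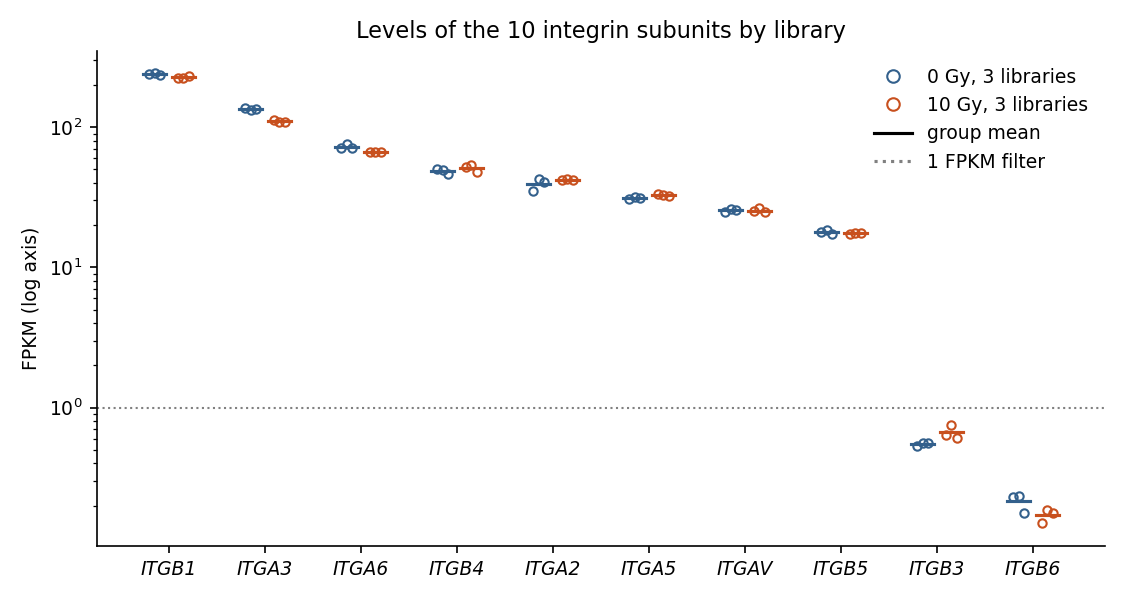
FPKM of each member (log axis) in the 3 libraries at 0 Gy (blue) and the 3 at 10 Gy (orange), with group means as bars and the filter of 1 FPKM dotted. Levels fall from ITGB1 near 239 FPKM to ITGB5 near 17.9 FPKM, and ITGB3 and ITGB6 lie below the filter in every library.

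The bases before the start of transcription also differ at the ends of this order. RefSeq promoter windows (GRCh38.p14, 250 bases before the start and 50 after) were at hand for 7 members, ITGA2, ITGA5, ITGA6, ITGAV, ITGB1, ITGB5 and ITGB6. The window of ITGB1 was 78.3% G and C, that of ITGA6 53.0% and that of ITGB6 31.7%, against a median of 58.7% over all 35116 windows. Between the ends, G and C content did not follow the order of levels. ITGA2 (72.7%), ITGAV (70.7%) and ITGA5 (69.3%) were richer in G and C than ITGA6, though lower in level. ITGB5 was at 49.7%. Searched on both strands, the GC box GGGCGG was found in 5 of the 7, in ITGA2, ITGA5, ITGA6, ITGB1 and ITGB5, and not in ITGAV or ITGB6. It is in 45.0% of all windows. TATAAA was found in ITGA6, and in 11.5% of all windows. The AP-1 motif TGANTCA was found in ITGA5, and in 7.71% of all windows, and CCAAT, in 34.6% of all windows, in none of the 7. The last 80 bases before the start are shown for the highest member, the lowest member and ITGA6. ITGA6 was called lower at 10 Gy on the deposited scale, though not under every scaling. GC boxes and TATAAA on either strand are in capitals.
ITGB1: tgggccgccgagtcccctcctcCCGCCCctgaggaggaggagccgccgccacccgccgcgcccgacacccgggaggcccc
ITGA6: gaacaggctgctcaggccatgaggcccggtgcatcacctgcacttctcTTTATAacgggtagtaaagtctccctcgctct
ITGB6: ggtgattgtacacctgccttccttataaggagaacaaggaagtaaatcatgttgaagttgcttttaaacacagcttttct
They lie at chr10:32958231-32958310 (minus strand), chr2:172427256-172427335 (plus) and chr2:160200273-160200352 (minus). A match is a run of letters, not a site shown to be bound.

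After 10 Gy, the transcript of the laminin-binding subunit ITGA3 fell, and that of ITGA6 fell on the deposited scale but had the opposite sign under TPM scaling. No member rose on the deposited scale, and ITGA5 and ITGB4 did under TPM scaling. The test was limma on log2(FPKM + 1) with Benjamini-Hochberg adjustment over the 12128 genes that averaged 1 FPKM or more, and a gene was called at an adjusted p under 0.05. ITGB3 and ITGB6 did not pass the filter. Of the 8 members tested, 2 were called, against 35.6% of all genes tested. Both were lower, where 23.7% of all genes were called lower and 11.9% higher. The share of members called is therefore not above that of the background. None of the members was called with a change of at least 1.3-fold, where 5.77% of all genes were. The median log2 difference of the 8 members was -0.02, beside -0.04 over all genes tested. In bulk RNA, fewer cells with a transcript and less of it per cell cannot be told apart.

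The scaling of the libraries matters for changes of this size. The FPKM values of a library summed to between 269611 and 278380 at 0 Gy and between 246920 and 254918 at 10 Gy. TPM scaling, which sets these sums equal, moved the median difference of all genes from -0.04 to 0.08 on the log2 scale. It turned the 1443 higher and 2874 lower calls of the deposited scale into 3113 higher and 1066 lower. Median-of-ratios scaling, which sets the median near 0, gave 1945 higher and 2047 lower. For the members and the other subunits tested, directions that flip between these scalings are named below, gene by gene. Flips among the listed partner genes are not all given.

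ITGA3 encodes the alpha chain of integrin alpha3beta1, a receptor for laminin-332 and laminin-511 (ENSG00000005884, chromosome 17, 50055968 to 50090481, plus strand). Its level was 137, 132 and 134 FPKM at 0 Gy and 112, 108 and 109 FPKM at 10 Gy. Every irradiated library lay below every control library. The level after irradiation was 0.818 times the control on the FPKM + 1 scale (95% interval 0.776 to 0.862; log2 difference -0.29, SE 0.0321, limma adjusted p = 0.00117). Its call held under every alternative run, with log2 differences between -0.31 and -0.16, the smallest fall under TPM scaling. These values rest on 19325 to 32934 reads per library.

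ITGA6 encodes the alpha chain of the laminin receptors alpha6beta1 and alpha6beta4 (ENSG00000091409, chromosome 2, 172427354 to 172506282, plus strand). Its level was 70.8, 75.4 and 71.4 FPKM at 0 Gy and 66.7, 66.0 and 66.6 FPKM at 10 Gy. The groups did not overlap, and the 3 irradiated libraries lay within 1 FPKM of each other. The level after irradiation was 0.918 times the control (95% interval 0.869 to 0.969; log2 difference -0.12, SE 0.0334, limma adjusted p = 0.0261). The call did not hold under median-of-ratios scaling (adjusted p = 0.115) and under TPM scaling, where the log2 difference of 0.003 had the opposite sign (adjusted p = 0.959). It was also lost without 0 Gy replicate 2 (-0.10, adjusted p = 0.056) and without each irradiated library in turn (adjusted p between 0.072 and 0.092), all from limma with Benjamini-Hochberg adjustment. Without the filter limma gave ITGA6 an adjusted p of 0.061, and with the replicate block one of 0.064.

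ITGA2 encodes the alpha chain of the collagen receptor alpha2beta1 (ENSG00000164171, chromosome 5, 52989326 to 53094779, plus strand). Its level was 34.9, 42.4 and 40.5 FPKM at 0 Gy and 41.8, 42.9 and 41.7 FPKM at 10 Gy. The lowest of these is 0 Gy replicate 1, and the other 2 controls lie close to the irradiated libraries. ITGA2 was not called (log2 difference 0.10, SE 0.0666, limma adjusted p = 0.259), and without 0 Gy replicate 1 the log2 difference was 0.02.

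ITGA5, the alpha chain of the classical fibronectin receptor alpha5beta1 (ENSG00000161638, chromosome 12, 54395261 to 54419460, minus strand), was at 30.7, 32.0 and 31.2 FPKM at 0 Gy and 33.2, 32.7 and 32.0 FPKM at 10 Gy. All irradiated libraries lay above all controls, by little, and ITGA5 was not called on the deposited scale (log2 difference 0.06, SE 0.0307, limma adjusted p = 0.174). It was called higher under TPM scaling (0.19, limma adjusted p = 0.011) and under median-of-ratios scaling (0.11, limma adjusted p = 0.040). ITGAV, whose chain pairs with several beta chains to bind vitronectin, fibronectin and latent TGF-beta (ENSG00000138448, chromosome 2, 186590065 to 186680901, plus strand), was at 24.8, 26.2 and 25.6 FPKM at 0 Gy and 25.2, 26.3 and 24.7 FPKM at 10 Gy. The groups overlapped throughout (log2 difference -0.01, SE 0.0366, limma adjusted p = 0.905), with a 95% interval of the fold from 0.938 to 1.06. Its sign turned under TPM scaling (0.12) and median-of-ratios scaling (0.04), neither of them called.

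Of the beta subunits, none was called on the deposited scale. ITGB1, the common partner of ITGA2, ITGA3, ITGA5 and ITGA6 (ENSG00000150093, chromosome 10, 32900319 to 33005792, minus strand), was at 239, 242 and 237 FPKM at 0 Gy and 225, 226 and 231 FPKM at 10 Gy. The irradiated libraries lay below the controls without overlap, but ITGB1 was not called (log2 difference -0.08, SE 0.0318, limma adjusted p = 0.102), and under TPM scaling the sign turned to 0.05. The annotated gene ITGB1-DT overlaps ITGB1 on the other strand at 3.62 FPKM, far below ITGB1.

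ITGB4, the long beta chain that anchors hemidesmosomes to keratin filaments (ENSG00000132470, chromosome 17, 75721328 to 75757818, plus strand), was at 50.3, 49.3 and 46.0 FPKM at 0 Gy and 51.7, 53.8 and 48.0 FPKM at 10 Gy. The groups overlapped through 10 Gy replicate 3, and ITGB4 was not called (log2 difference 0.07, SE 0.0516, limma adjusted p = 0.291). TPM scaling gave 0.20 and a call (limma adjusted p = 0.028). ITGB4 overlaps GALK1 on the other strand (11.5 FPKM at 0 Gy), and whether counting used strand is not given in the sources used here. ITGB5, a beta chain of vitronectin receptors (ENSG00000082781, chromosome 3, 124761948 to 124901418, minus strand), was at 18.0, 18.4 and 17.3 FPKM at 0 Gy and 17.2, 17.5 and 17.7 FPKM at 10 Gy. Its irradiated values lay within the range of the controls or just under it (log2 difference -0.03, SE 0.0342, limma adjusted p = 0.466), and the sign turned under TPM (0.09) and median-of-ratios (0.01) scaling, with no call.

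The other 2 beta chains were near the floor. ITGB3, the beta chain of the vitronectin receptor alphaVbeta3 and of the platelet fibrinogen receptor (ENSG00000259207, chromosome 17, 47253846 to 47311816, plus strand), was at 0.534, 0.563 and 0.557 FPKM at 0 Gy and 0.639, 0.748 and 0.610 FPKM at 10 Gy. The irradiated libraries were the higher ones without overlap. ITGB6, the epithelial beta chain of alphaVbeta6 that activates latent TGF-beta (ENSG00000115221, chromosome 2, 160099666 to 160200313, minus strand), was at 0.230, 0.236 and 0.177 FPKM at 0 Gy and 0.150, 0.187 and 0.177 FPKM at 10 Gy, with overlap. Fitted without the filter, ITGB3 had a log2 difference of 0.10 (limma adjusted p = 0.491) and ITGB6 of -0.05 (limma adjusted p = 0.528), and neither was called. Over all 10 members the groups did not overlap in 5, ITGA3, ITGA5, ITGA6, ITGB1 and ITGB3. Among the 8 tested it was 4, beside 51.9% of all genes tested.

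**Figure D2:**
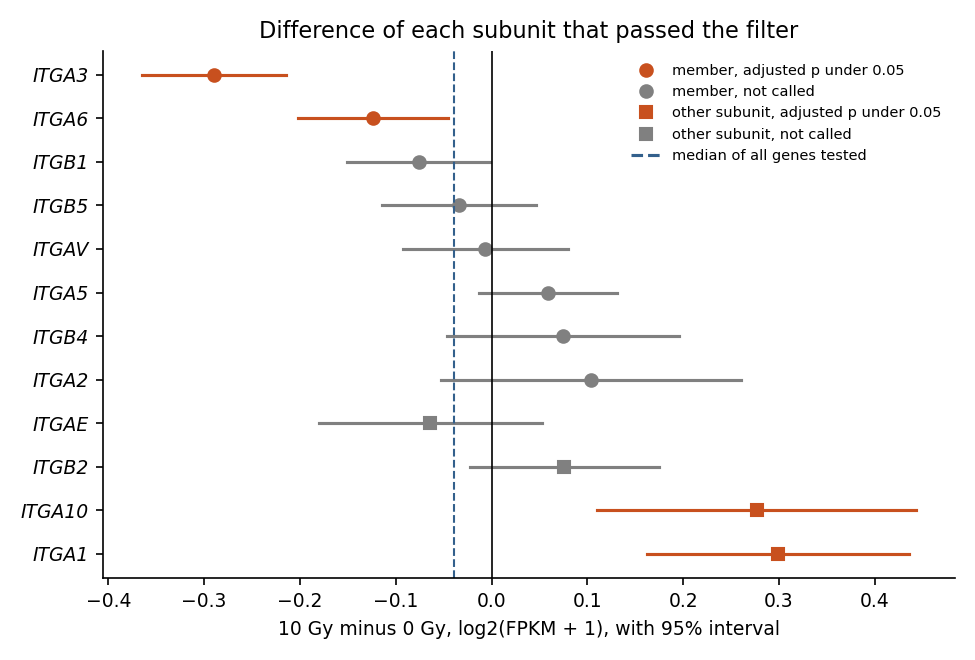
Difference between 10 Gy and 0 Gy on the log2(FPKM + 1) scale, with limma's 95% interval, for the 8 members (circles) and the 4 other subunits (squares) that passed the filter, called ones in orange. ITGA3 at -0.29 lies farthest below the dashed median of all genes at -0.04, and ITGA1 at 0.30 and ITGA10 at 0.28 farthest above it.

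**Figure D3:**
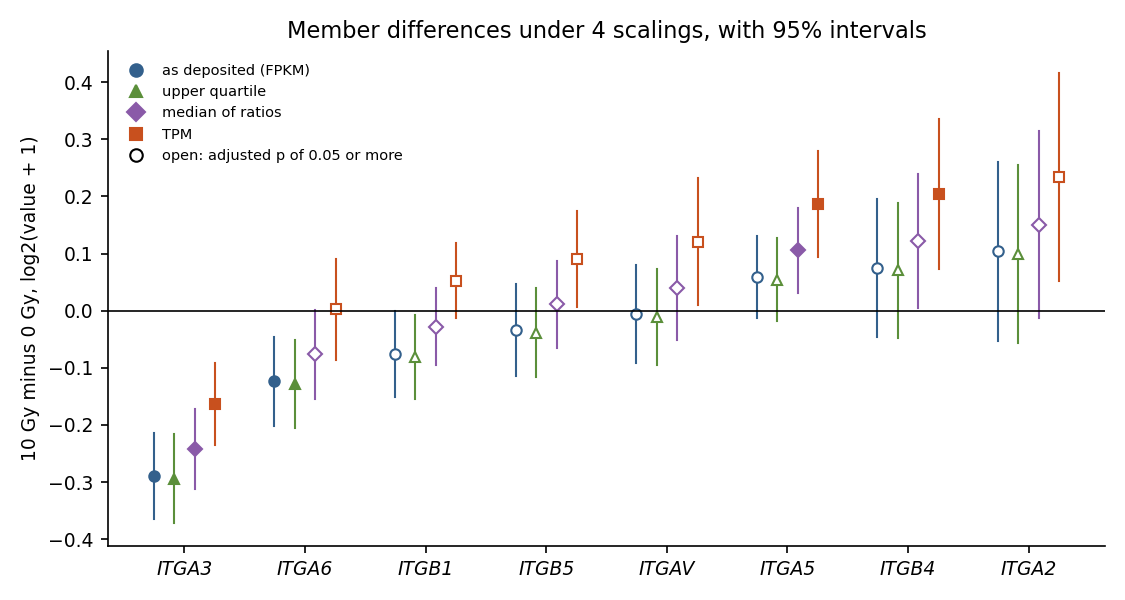
Log2 difference of the 8 members with 95% intervals under the deposited FPKM, upper quartile, median-of-ratios and TPM scaling (filled symbols were called). Every member shifts upward together from FPKM to TPM, and ITGA3 is the member below 0 and called under all 4 scalings.

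Shares and ratios within a library do not depend on that scaling. At 0 Gy, ITGA3 made up 43.2 ± 1.45% (SD, n = 3) of the summed FPKM of the 18 alpha subunits, and at 10 Gy 38.4 ± 0.526% (SD, n = 3). The share of ITGA6 was 23.3% at both doses. ITGA2 went from 12.6 ± 1.07% to 14.8 ± 0.282%, ITGA5 from 10.1 ± 0.0655% to 11.4 ± 0.103% and ITGAV from 8.20 ± 0.109% to 8.90 ± 0.293% (SD, n = 3 each). The groups did not overlap for ITGA3, ITGA2, ITGA5 and ITGAV. Shares add to a fixed total, so the smaller part of ITGA3 is also a larger part of the others. Of the 8 beta subunits, ITGB1 made up 75.6 ± 0.644% at 0 Gy and 73.9 ± 0.826% at 10 Gy (SD, n = 3), without overlap, and ITGB4 15.3 ± 0.506% and 16.7 ± 0.961% (SD, n = 3), with overlap.

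For 9 pairs of subunits that form a receptor, the log2 ratio of alpha to beta FPKM was compared by a two-sided exact permutation test, whose smallest p for 3 libraries against 3 is 0.1, so no pair could pass 0.05. ITGA3:ITGB1, the alpha3beta1 pair, was -0.799, -0.874 and -0.825 at 0 Gy and -1.001, -1.064 and -1.081 at 10 Gy. The FPKM of ITGA3 thus went from 0.561 to 0.483 times that of ITGB1, a log2 change of -0.22 (exact p = 0.1, 0.18 adjusted over the 9 pairs). ITGA6:ITGB4, the hemidesmosome pair, was 0.49, 0.61 and 0.63 at 0 Gy and 0.37, 0.29 and 0.47 at 10 Gy, a change of -0.20 without overlap (exact p = 0.1, adjusted 0.18). ITGA6:ITGB1 changed by -0.05 and the groups overlapped (exact p = 0.2, adjusted 0.3). The fibronectin and collagen receptor pairs went the other way. ITGA5:ITGB1 changed by 0.14 and ITGA2:ITGB1 by 0.18, both without overlap (exact p = 0.1, adjusted 0.18 each). Without 0 Gy replicate 1 the change of ITGA2:ITGB1 was 0.10. Of the ITGAV pairs, ITGAV:ITGB3 changed by -0.27 without overlap (exact p = 0.1, adjusted 0.18), with ITGB3 near the floor, and by -0.11 with a pseudocount of 1. ITGAV:ITGB1 (0.07), ITGAV:ITGB5 (0.03) and ITGAV:ITGB6 (0.31) overlapped between doses (exact p = 0.3, 0.6 and 0.3). With a pseudocount of 1, ITGAV:ITGB6 changed by 0.045.

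**Figure D4:**
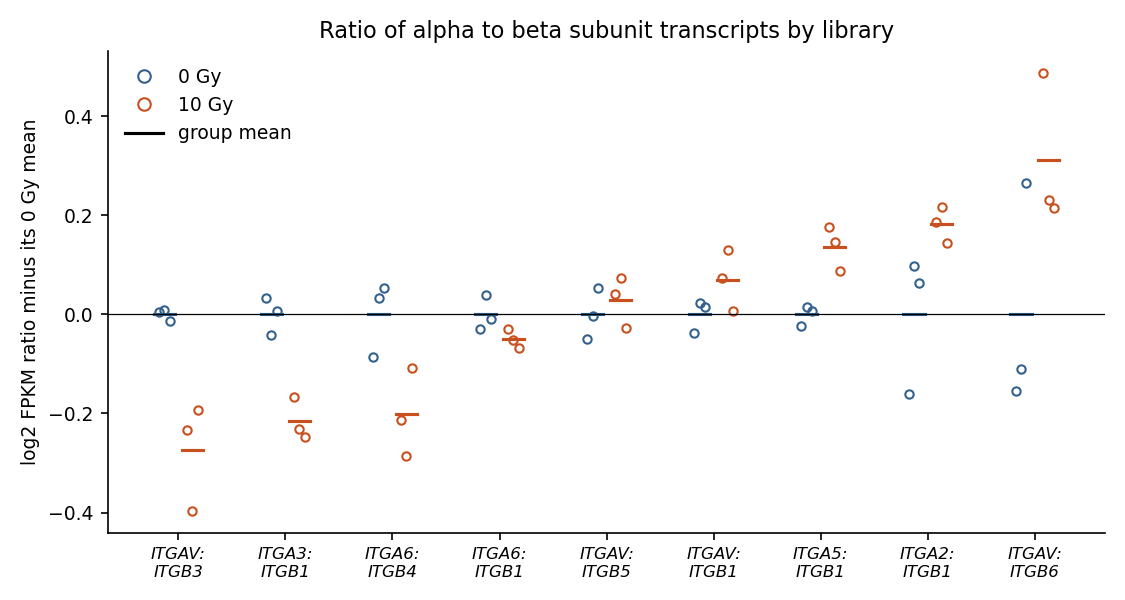
Log2 ratio of alpha to beta FPKM in each library, minus the mean of the 3 libraries at 0 Gy, for 9 receptor pairs (blue 0 Gy, orange 10 Gy, bars group means). ITGA3:ITGB1 and ITGA6:ITGB4 lie lower at 10 Gy and ITGA5:ITGB1 and ITGA2:ITGB1 higher, each without overlap, while the ITGAV pairs with ITGB1, ITGB5 and ITGB6 overlap.

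Summed over the 5 alpha members, the level was 298, 308 and 303 FPKM at 0 Gy and 279, 276 and 274 FPKM at 10 Gy. Over the 5 beta members it was 308, 311 and 301 FPKM at 0 Gy and 295, 298 and 297 FPKM at 10 Gy. Both sums were lower in every irradiated library than in every control (log2 -0.13 and -0.05, two-sided exact permutation p = 0.1 each, the smallest possible). Under TPM scaling the alpha sum changed by -0.004 and the beta sum by 0.08, the opposite sign.

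Of the other 16 subunits of the family, 4 passed the filter, and 2 of these were called, both higher. ITGA1, a collagen-binding partner of ITGB1 (ENSG00000213949, chromosome 5, 52787896 to 52959210, plus strand), was at 2.25, 2.24 and 2.21 FPKM at 0 Gy and 2.73, 3.16 and 3.04 FPKM at 10 Gy. It rose in every irradiated library above every control (log2 difference 0.30, SE 0.0582, limma adjusted p = 0.00818), and the call held under every alternative that kept the gene. Its gene holds PELO on the same strand (18.2 FPKM at 0 Gy), a shorter gene that was lower at 10 Gy (log2 difference -0.16). ITGA10, another collagen-binding chain (ENSG00000143127, chromosome 1, 145891208 to 145910189, minus strand), was at 0.994, 0.927 and 1.09 FPKM at 0 Gy and 1.53, 1.33 and 1.41 FPKM at 10 Gy. It rose without overlap (log2 difference 0.28, SE 0.0709, limma adjusted p = 0.0217). Across the 6 libraries of both doses, ITGA10 rested on 90 to 290 reads per library. It lost its call without 0 Gy replicate 2 and without 10 Gy replicate 1 or 3 (limma adjusted p between 0.057 and 0.084). The call was also lost without the filter (limma adjusted p = 0.084) and with the replicate block (0.0504).

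The 2 others are known from leukocytes. ITGB2, the beta2 chain, was at 10.2, 9.86 and 9.48 FPKM at 0 Gy and 10.3, 10.1 and 10.8 FPKM at 10 Gy and was not called (log2 difference 0.08, SE 0.0419, limma adjusted p = 0.196), except under TPM scaling (0.21, limma adjusted p = 0.007). ITGAE, the alpha chain of an E-cadherin receptor, was at 4.87, 4.41 and 4.83 FPKM at 0 Gy and 4.60, 4.31 and 4.44 FPKM at 10 Gy and was not called (log2 difference -0.06, SE 0.0496, limma adjusted p = 0.347). On the other strand, ITGAE overlaps HASPIN (14.1 FPKM at 0 Gy) and ITGB2 overlaps ITGB2-AS1 (3.28 FPKM at 0 Gy). If counting ignored strand, such genes may share reads. The usual partners of ITGB2 were at or near 0, with ITGAM at most 0.170 FPKM and ITGAL at most 0.016 FPKM. ITGB7, the partner of ITGAE, was at most 0.103 FPKM. The leukocyte marker PTPRC was at most 0.0071 FPKM, while CD14 was at 1.31 to 3.05 FPKM. The summed FPKM of markers of other cell types was low, and higher at 10 Gy without overlap for each list but the leukocyte one. Leukocyte markers summed to 1.39 to 2.59 at 0 Gy and 2.06 to 3.21 at 10 Gy, endothelial ones to 2.16 to 2.49 and 2.82 to 3.15, fibroblast ones to 1.11 to 1.29 and 1.45 to 1.51, and platelet ones to 1.86 to 2.19 and 2.87 to 3.05. Of each of these lists, 1 gene averaged 1 FPKM or more. The 6 markers listed for an epithelial or breast cancer line (KRT8, KRT18, KRT19, EPCAM, CD44 and VIM) summed to 656 to 705 FPKM at 0 Gy and 601 to 615 FPKM at 10 Gy. Of these, VIM averaged 301 and 251 FPKM, KRT19 90.9 and 75.0 FPKM, and KRT8 94.97 and 101.5 FPKM at 0 and 10 Gy. Their part in the changes of ITGA1, ITGA10 and ITGB3 was not tested.

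The laminins that ITGA3 and ITGA6 bind were measured in the same cells. LAMA3 and LAMB3 encode chains of laminin-332. LAMB3 was at 126, 120.1 and 123 FPKM at 0 Gy and 97.5, 95.1 and 99.9 FPKM at 10 Gy and fell (log2 difference -0.33, SE 0.0340, limma adjusted p = 0.000939). LAMA3, at 3.52, 4.22 and 4.13 FPKM at 0 Gy and 4.60, 4.46 and 4.31 FPKM at 10 Gy, was not called (log2 difference 0.14, SE 0.0642, limma adjusted p = 0.124). For LAMA3 every irradiated library lay above every control, the opposite direction to LAMB3. The chains of laminin-521 went the other way from LAMB3 or were not called. LAMA5 was at 53.5, 55.7 and 61.5 FPKM at 0 Gy and 80.2, 83.1 and 73.3 FPKM at 10 Gy and rose (log2 difference 0.46, SE 0.0644, limma adjusted p = 0.00246). Its antisense partner LAMA5-AS1 rose as well (log2 difference 0.91, limma adjusted p = 0.0058), and their reads could not be told apart if counting ignored strand. LAMB2 rose from 41.2 ± 0.691 FPKM to 46.9 ± 0.904 FPKM (SD, n = 3; log2 difference 0.19, SE 0.0299, limma adjusted p = 0.00411). LAMC1 was not called (log2 difference 0.08, SE 0.0490, limma adjusted p = 0.220). These are calls on the deposited scale, and under TPM scaling LAMA3 and LAMC1 were both called higher. LAMB1, the beta chain of laminin-511, was at 22.5 ± 0.333 FPKM at 0 Gy and 21.6 ± 0.199 FPKM at 10 Gy (SD, n = 3). It was not called (log2 difference -0.05, SE 0.0285, limma adjusted p = 0.176), though every irradiated library lay below every control. CD151, the tetraspanin that binds alpha3beta1 and alpha6beta4, was at 83.0, 73.8 and 72.9 FPKM at 0 Gy and 67.1, 63.4 and 65.1 FPKM at 10 Gy and fell (log2 difference -0.23, SE 0.0537, limma adjusted p = 0.0164). The call of CD151 was lost under TPM scaling (limma adjusted p = 0.126), without 10 Gy replicate 2 (-0.21, 0.0646) and without the filter (0.0646). PLEC, the plakin that ties ITGB4 to keratins, was at 203 ± 10.0 FPKM and 205 ± 8.55 FPKM (SD, n = 3) and was not called (log2 difference 0.02, SE 0.0493, limma adjusted p = 0.818). LAMB3, LAMB2, LAMA3, LAMC1, LAMB1, CD151 and PLEC, and FN1 and TLN1 further on, were named after their values were seen.

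**Figure D5:**
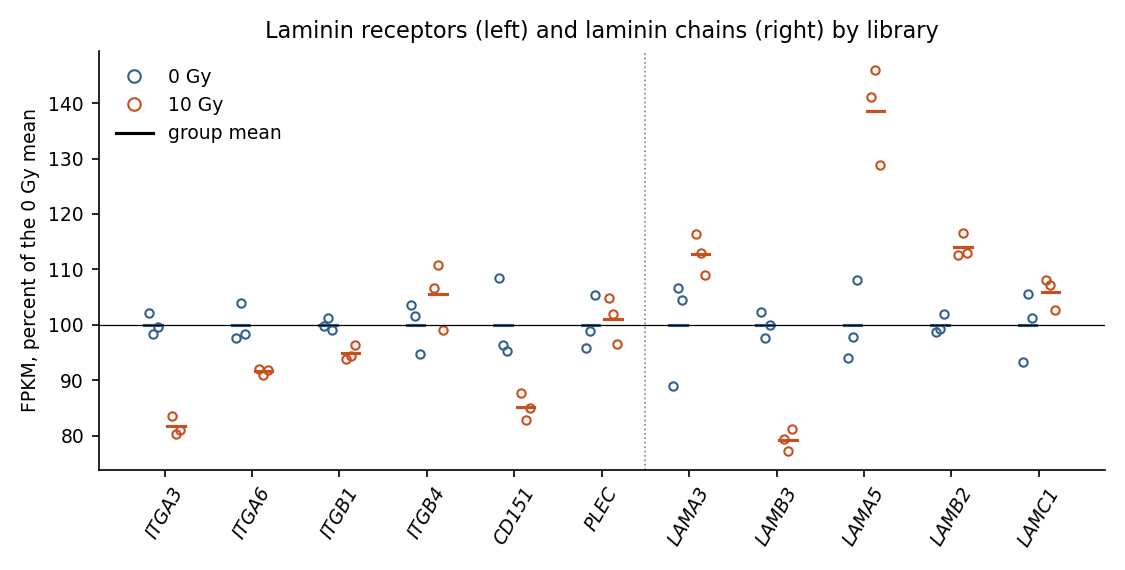
FPKM in each library as percent of the 0 Gy mean for the laminin-binding subunits with CD151 and PLEC (left) and laminin chains (right), with bars as group means (blue 0 Gy, orange 10 Gy). On this deposited scale ITGA3, ITGA6, ITGB1, CD151 and LAMB3 lie below 100 in every irradiated library, and LAMA3, LAMA5 and LAMB2 above every control library. ITGB1 and LAMA3 were not called on this scale.

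Across the 31 matrix ligands listed, 23 were tested, of which 7 rose, 5 fell and 11 were not called, with a median log2 difference of 0.05 beside -0.04 over all genes. Of all genes tested, 11.9% were called higher and 23.7% lower. The largest rises were those of LAMA5, of FBN1, the microfibril protein fibrillin-1 (log2 difference 0.43, SE 0.0595, limma adjusted p = 0.00249), and of COL1A1, a chain of type I collagen (log2 difference 0.37, SE 0.0456, limma adjusted p = 0.00173). Among those that fell were CTGF (log2 difference -1.03, SE 0.0668, limma adjusted p = 0.000428) and CYR61 (log2 difference -0.53, SE 0.0697, limma adjusted p = 0.00208), matricellular proteins that bind integrins and are known targets of YAP. FN1, the fibronectin that ITGA5 binds, was at 24.5, 29.9 and 28.8 FPKM at 0 Gy and 31.9, 33.0 and 29.6 FPKM at 10 Gy, with overlap, and was not called (log2 difference 0.18, SE 0.0758, limma adjusted p = 0.101). TPM scaling changed the split of the ligands to 10 higher and 5 lower, and FN1 was then called higher. FN1 was also called higher among protein-coding genes alone.

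Among 36 adaptors that tie integrin tails to actin and to signalling, 31 were tested, of which 4 rose, 8 fell and 19 were not called (median -0.05). Over all genes tested, 35.6% were called, 11.9% higher and 23.7% lower, so the adaptors lie near the background. TNS4 (log2 difference 0.60, SE 0.0554, limma adjusted p = 0.000704) and TNS2 (log2 difference 0.42, SE 0.0470, limma adjusted p = 0.00118), tensins that bind beta chain tails, and the kinase SRC (log2 difference 0.29, SE 0.0459, limma adjusted p = 0.00374) had the largest rises. FERMT1, which encodes the integrin activator kindlin-1 (log2 difference -0.38, SE 0.0709, limma adjusted p = 0.00689), the actin crosslinker FLNA (log2 difference -0.32, SE 0.0449, limma adjusted p = 0.00247) and the adhesion protein ZYX (log2 difference -0.19, SE 0.0379, limma adjusted p = 0.00925) had the largest falls. TLN1, the talin that docks at the NPxY codons shown above, was at 83.7, 90.9 and 89.5 FPKM at 0 Gy and 82.9, 84.4 and 83.8 FPKM at 10 Gy and was not called (log2 difference -0.07, SE 0.0381, limma adjusted p = 0.186). TPM scaling changed this split to 9 higher and 2 lower, and ZYX was then not called.

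The list of 19 integrin-associated membrane proteins, which also holds the plakin genes PLEC and DST, was tested in full. Of these 19 genes, 2 rose, 9 fell and 8 were not called (median -0.11). Over all genes tested, 11.9% were called higher and 23.7% lower. The tetraspanins CD82 (log2 difference 0.26, SE 0.0405, limma adjusted p = 0.00383) and CD9 (log2 difference 0.13, SE 0.0374, limma adjusted p = 0.0293) were the 2 that rose. The call of CD9 was lost without any 1 library other than 0 Gy replicate 1 (0.11 to 0.15, limma adjusted p between 0.069 and 0.095). It was also lost without the filter, without the eBayes trend and with the replicate block. PLAUR, the urokinase receptor (log2 difference -0.43, SE 0.0407, limma adjusted p = 0.000707), SLC3A2, the CD98 heavy chain that binds beta chain tails (log2 difference -0.42, SE 0.0332, limma adjusted p = 0.000586), and the tetraspanin TSPAN4 (log2 difference -0.36, SE 0.0581, limma adjusted p = 0.00411) had the largest falls. TPM scaling changed this split to 6 higher and 5 lower, and PLAUR, SLC3A2 and TSPAN4 were still called lower.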

How the data were processed

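Gene expression was measured by RNA sequencing in 6 libraries of MDA-MB-231 cells, 3 at each dose, grouped by the treatment label. The authors deposited FPKM values per gene and library, which came from a sequencing company that enriched polyA RNA. The submitters' processing notes name HISAT2 and GRCh38, and the counting program is not given in the sources used here. Coordinates are those of the table. FPKM multiplied by gene length was a whole multiple of 1 step per library for 100% of values above 0 (tolerance 0.05 reads), and these reads were used only for depth.

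The test between doses was that of limma 3.58.1 (R 4.3.3), with values as log2(FPKM + 1) and the eBayes prior following mean intensity. It covered genes that averaged 1 FPKM or more. Calls were made at a Benjamini-Hochberg adjusted p under 0.05. A pseudocount of 1 understates the change of low genes. The procedure was tested on simulated data in which 200 of 12128 genes were changed. It recovered 95% of 2-fold and 79% of 1.3-fold changes, and 5.95% of its calls were unchanged genes. Changes under 1.3-fold, the size of those of the members tested, were not simulated. Far more genes were called in the real data (35.6%) than were changed in the simulation. Ratios and sums of subunits were compared by exact permutation tests (SciPy 1.17.1). Replicate numbers were not used to pair the libraries, except in the replicate block described below.

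The members, the lists of partner genes and the tests were chosen with earlier results of these data known. Genes named from a list are the up to 3 called genes with the largest rise and the largest fall. Genes that met this rule or belonged to a marker list but are not named are not reported here. Alternatives covered the pseudocount, the filter, scaling to TPM, the upper quartile or the median of ratios, a replicate block, eBayes settings, protein-coding genes alone and each library left out. Sequences were read from GENCODE 29 transcripts with Biopython 1.88 and from RefSeq promoters. Residue motifs and chain lengths came from the coding sequences of the GENCODE transcripts, and no separate protein sequences were used.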

Additional observations from a re-analysis of the deposited data

How the results depend on the processing

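On the deposited scale 0 members were called higher and 2 lower (limma), and 0 to 0 and 1 to 2 when each library was left out. At an unadjusted p under 0.05, ITGA3, ITGA6 and ITGB1 were lower. TPM scaling called 2 higher and 1 lower, median-of-ratios scaling 1 and 1, and the fit without a filter and the replicate block 1 lower each. Same-numbered libraries deviated with correlations of -0.04, -0.03 and -0.10, and differently numbered ones with correlations between -0.05 and 0.09. With so few libraries these values cannot show whether the replicate numbers pair them. With the replicate block, the other subunits had 1 higher call, the adaptors 5 lower and the associated membrane proteins 1 higher.

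TPM scaling turned the sign of the summed beta members (0.0804), of all 10 members (0.0390), ITGA6 (0.00280), ITGAV (0.12), ITGB1 (0.0521), ITGB5 (0.0909) and ITGAE (0.0479). Median-of-ratios scaling turned the summed beta members (0.000166), ITGAV (0.0398) and ITGB5 (0.0113). Leaving out each library, ITGAV lay between -0.0313 and 0.0129, and was above 0 without 0 Gy replicate 2 (0.0123) and without 10 Gy replicate 3 (0.0129). The cause was not tested.

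Of all genes, 1443 were called higher and 2874 lower, with 342 and 358 changed at least 1.3-fold. Leaving out a library gave 846 to 1388, 1805 to 2621, 271 to 369 and 301 to 432, with fewest calls in either direction without 10 Gy replicate 2. TPM scaling gave 3113, 1066, 1078 and 143. A minimum of 5 FPKM gave 874 higher, and 125 of at least 1.3-fold. A pseudocount of 0.1 gave 538 higher of at least 1.3-fold. No filter gave 1815 lower, and median-of-ratios scaling 226 lower of at least 1.3-fold.

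The other subunits had 1 higher call without a filter, 0 at 5 FPKM, where ITGA1 and ITGA10 were not tested, and 1 to 2 when each library was left out. Adaptors had 9 higher and 2 lower calls under TPM, 4 lower without a filter, under median-of-ratios scaling and without the eBayes trend, and 3 to 4 higher and 4 to 8 lower when each library was left out (4 without each irradiated library). Associated membrane proteins had 6 higher and 5 lower calls under TPM, 1 and 5 without a filter, 1 higher without the trend, and 1 to 2 higher and 5 to 10 lower when each library was left out (1 higher without 0 Gy replicate 2 or any irradiated library, 5 lower without 10 Gy replicate 2). Ligands had 10 higher and 5 lower calls under TPM, and kept 6 to 7 higher and 5 lower calls when each library was left out. The log2 ratios of the 9 pairs kept their sign under all alternatives run, but not their size. A pseudocount of 1 moved ITGAV:ITGB6 from 0.311 to 0.0454 and ITGAV:ITGB3 from -0.274 to -0.108. Without 0 Gy replicate 1, ITGA2:ITGB1 went from 0.183 to 0.103 and ITGAV:ITGB5 from 0.0294 to 0.00485. Without 10 Gy replicate 2, ITGAV:ITGB1 went from 0.0695 to 0.0398 and ITGAV:ITGB5 to 0.00709. ITGAV:ITGB5 was 0.0555 without 0 Gy replicate 3 and 0.0577 without 10 Gy replicate 3, and ITGA6:ITGB1 went from -0.0493 to -0.0297 without 0 Gy replicate 2.

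The limits are few libraries and small changes. With 3 libraries a dose, exact tests cannot pass 0.05, and ITGB3 and ITGB6 rest on 16 to 84 reads.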

Other observations

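ILK, the kinase-like adaptor of beta chain tails, was listed at 0.654 to 1.22 FPKM and did not pass the filter, while its partners PARVA (13.7 FPKM at 0 Gy), LIMS1 (9.31 FPKM) and RSU1 (27.2 FPKM) did. ILK overlaps TAF10 on the other strand over 4579 bases, and TAF10 was at 2.96 FPKM at 0 Gy. ILK was singled out after its value was seen. In the low range of the family, ITGA9 was at 0.006 to 0.008 FPKM at 0 Gy and 0.020 to 0.022 FPKM at 10 Gy, ITGA7 at 0.071 to 0.103 and 0.142 to 0.181 FPKM, and ITGA2B at 0.076 to 0.094 and 0.108 to 0.229 FPKM, each without overlap. In the limma fit without the filter none was called, with adjusted p of 0.481 for ITGA9, 0.140 for ITGA7 and 0.264 for ITGA2B. ITGA9 rested on 1 to 5 reads per library, ITGA7 on 7 to 27 and ITGA2B on 8 to 38.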
